A study of Mus musculus with 6 samples.

Results

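The enzymes of central carbon metabolism are described here across 3 sorted fractions of undifferentiated mouse embryonic stem cell (ESC) cultures. The set holds 52 genes, taken by name from the 38561 rows of the count table: 15 of glycolysis, 11 of the branch that makes lactate or hands pyruvate to the mitochondrion, 6 of the pentose phosphate pathway, 16 of the citrate cycle and its side reactions, and 4 of glycogen metabolism. Every one had counts in each library and passed the filter on low counts.

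The cells had the 129X1/SvJ x 129S1/Sv background and were at passages 13 to 17. They were grown without feeder cells on gelatin in a medium with 20% serum replacement, 2 mM L-glutamine and leukemia inhibitory factor at 1000 U/ml. Flow cytometry on the surface proteins PECAM1 and PDGFRa gave 3 fractions, each with 2 libraries: cells with PDGFRa but not PECAM1 (PDGFRa-only), cells with both (double-positive) and cells with PECAM1 but not PDGFRa (PECAM1-only). RNA of 100000 sorted events per subpopulation was amplified before sequencing. All 3 fractions share the strain, the medium and the passages, and none was treated. The replicate numbers 1 and 2 used here come from the library titles, which end in Exp1 or Exp2. These endings may stand for separate experiments, but whether the cultures were separate is not stated. A p-value therefore measures only the spread between these libraries, which may be technical.

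Glycolysis splits glucose into pyruvate. Lactate dehydrogenase then reduces pyruvate to lactate, or the pyruvate dehydrogenase complex turns it into acetyl-CoA, which the citrate cycle oxidises in the mitochondrion. The pentose phosphate pathway branches off glucose 6-phosphate and yields NADPH and ribose 5-phosphate, the sugar of nucleotides. Many steps have several isozymes, enzymes from different genes for the same reaction that differ in their regulation. Pluripotent cells are known for a high rate of glycolysis.

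The libraries held 4809661 to 7273669 counts. Pecam1 and Pdgfra followed the labels: Pecam1 was between 1.51 and 1.57 CPM (counts relative to the scaled library size) in the PDGFRa-only libraries, 44.9 and 53.8 CPM in the double-positive and 143 and 166 CPM in the PECAM1-only libraries, while Pdgfra was between 509 and 605 CPM in both PDGFRa-positive fractions and at 1.88 and 2.04 CPM in the PECAM1-only libraries. Levels of markers of other cell types moved with the fractions. The 7 primitive endoderm markers measured (Gata4, Gata6, Sox17, Sox7, Foxa2, Cubn and Lama1) summed to between 14900 and 16550 CPM in the PDGFRa-only, 10630 and 11340 CPM in the double-positive and 50.2 and 66.8 CPM in the PECAM1-only libraries, and 8 pluripotency markers to 109 to 153 CPM, 441 to 509 CPM and 1487 to 1577 CPM. Of 8 endothelial and blood markers, Emcn, Erg and Ptprc had no count in any library, and the sum, 74.5 to 125 CPM in PDGFRa-only, 58.5 to 73.6 CPM in double-positive and 2.33 to 2.35 CPM in PECAM1-only libraries, came mainly from Cdh5 and Kdr. The 8 fibroblast markers summed to at most 7.55 CPM and the 6 trophoblast markers to at most 13.8 CPM in any library. In bulk fractions of this kind, a lower level can mean fewer cells of a type or less RNA per cell, and these cannot be told apart; the part of cell type mixture in the results below was not tested.

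Among the genes with the largest shifts were isozymes of the same reaction. The promoters of 3 such pairs are shown because their members moved against each other or unequally: the lactate dehydrogenases Ldha and Ldhb, the pyruvate dehydrogenase kinases Pdk1 and Pdk2, and the phosphofructokinases Pfkl and Pfkp. Each is 250 bases before to 50 bases after a RefSeq transcript start (GRCm38.p6), the one nearest the annotated start of the gene, written 5′ to 3′ on the gene's strand. Capitals mark ACGTG and GCGTG, the core of the hypoxia response element, and their reverse complements CACGT and CACGC, with overlaps allowed. The windows are chr7:46845554-46845853 (plus strand) for Ldha, chr6:142507908-142508207 (minus strand) for Ldhb, chr2:71872974-71873273 (plus strand) for Pdk1, chr11:95041322-95041621 (minus strand) for Pdk2, chr10:78009758-78010057 (minus strand) for Pfkl and chr13:6648722-6649021 (minus strand) for Pfkp.
Ldha: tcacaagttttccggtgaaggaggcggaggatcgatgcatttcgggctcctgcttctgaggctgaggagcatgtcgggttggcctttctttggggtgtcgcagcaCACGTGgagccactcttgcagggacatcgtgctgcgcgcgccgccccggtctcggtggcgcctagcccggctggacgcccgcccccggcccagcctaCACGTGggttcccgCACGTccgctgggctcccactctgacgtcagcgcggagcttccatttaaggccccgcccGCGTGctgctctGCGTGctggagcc
Ldhb: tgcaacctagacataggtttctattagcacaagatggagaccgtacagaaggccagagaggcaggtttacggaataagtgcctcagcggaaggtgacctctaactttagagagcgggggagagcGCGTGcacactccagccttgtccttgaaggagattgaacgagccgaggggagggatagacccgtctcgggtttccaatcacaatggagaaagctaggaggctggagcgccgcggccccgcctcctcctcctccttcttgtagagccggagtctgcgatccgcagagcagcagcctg
Pdk1: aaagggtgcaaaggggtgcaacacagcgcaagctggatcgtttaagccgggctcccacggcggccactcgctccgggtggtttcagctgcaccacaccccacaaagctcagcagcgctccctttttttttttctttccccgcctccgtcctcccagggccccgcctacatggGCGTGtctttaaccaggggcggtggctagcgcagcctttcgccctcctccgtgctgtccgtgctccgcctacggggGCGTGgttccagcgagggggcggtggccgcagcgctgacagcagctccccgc
Pdk2: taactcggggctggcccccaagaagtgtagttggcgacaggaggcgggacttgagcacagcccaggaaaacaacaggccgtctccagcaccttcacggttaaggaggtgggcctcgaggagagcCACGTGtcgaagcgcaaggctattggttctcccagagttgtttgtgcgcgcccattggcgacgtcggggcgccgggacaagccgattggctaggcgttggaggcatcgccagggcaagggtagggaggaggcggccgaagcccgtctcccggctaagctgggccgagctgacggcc
Pfkl: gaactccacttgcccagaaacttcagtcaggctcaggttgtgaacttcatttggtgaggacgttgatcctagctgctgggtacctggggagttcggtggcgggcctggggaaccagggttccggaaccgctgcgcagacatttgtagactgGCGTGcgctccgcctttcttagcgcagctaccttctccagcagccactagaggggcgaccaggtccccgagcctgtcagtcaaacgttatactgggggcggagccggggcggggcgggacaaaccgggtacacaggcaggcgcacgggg
Pfkp: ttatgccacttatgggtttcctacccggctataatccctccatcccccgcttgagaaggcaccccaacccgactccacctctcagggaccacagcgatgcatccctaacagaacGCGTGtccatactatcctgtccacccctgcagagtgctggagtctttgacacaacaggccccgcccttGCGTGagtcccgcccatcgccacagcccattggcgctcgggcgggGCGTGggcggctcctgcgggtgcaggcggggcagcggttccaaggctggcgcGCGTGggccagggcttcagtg

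The Ldha window held 7 matches, Pfkp 4, Pdk1 and Pdk2 2 each, and Ldhb and Pfkl 1 each. A CACGTG counts as 2 overlapping matches. Those of Pdk2 lie in 1 such stretch, as do some of Ldha, while the 2 of Pdk1 lie apart. Of all 32851 windows of this length, 43.8% held at least 1 match and 20.6% at least 2. Among genes, 40 of the 50 members with a window and 6411 of the 9353 tested genes with one (68.5%) had a match in any of their windows. It was found in 13 of 18 members that rose in PDGFRa-only against PECAM1-only cells, in 9 of 9 that fell and in 18 of 23 that passed in neither direction. A match describes the letters only.

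Between PDGFRa-only and PECAM1-only cells, 19 members were higher in PDGFRa-only cells, 9 were lower and 24 did not pass (edgeR's quasi-likelihood test, Benjamini-Hochberg adjusted p under 0.05 over all 13909 genes tested). Of all genes tested, 59.0% passed in this comparison, 30.1% higher and 28.8% lower, against 53.8%, 36.5% and 17.3% of the members. The median log2 fold change was 0.18 over the members and 0.01 over all genes. The routes differed in their make-up. Citrate cycle (8 of 16), pentose phosphate (3 of 6) and glycogen genes (3 of 4) passed only in the higher direction, glycolysis had 4 higher and 3 lower of 15, and the lactate and pyruvate branch 1 higher and 6 lower of 11. The medians were 0.44, 0.51, 0.94, -0.16 and -0.61 in that order.

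Double-positive against PECAM1-only cells gave 15 members higher, 6 lower and 31 that did not pass. The background was 38.2% of all genes, 21.8% higher and 16.4% lower, and the members stood at 40.4%, 28.8% and 11.5%, with a median log2 fold change of 0.10 against -0.01 for all genes. PDGFRa-only against double-positive cells gave 4 members higher and 3 lower, or 13.5%, where 17.6% of all genes passed (5.94% higher, 11.7% lower). The 3 comparisons share libraries and are not independent. The share of passing members was close to or below that of all genes in each, so their number is no finding about these enzymes. The split of directions moved with the scaling of the libraries: the higher share of passing members against PECAM1-only cells was 67.9% with TMM and 54.8% with library size alone for PDGFRa-only cells, and 71.4% with TMM and 48.0% with library size for double-positive cells, where upper-quartile scaling gave 13 higher and 12 lower. These scalings lowered the median log2 fold change of all genes to -0.20 (upper quartile) and -0.28 (library size) in the first comparison, and to -0.17 and -0.22 in the second. Between the PDGFRa-positive fractions the higher share was 57.1% with TMM, 40.0% with DESeq2 and 33.3% with library size.

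**Figure D1:**
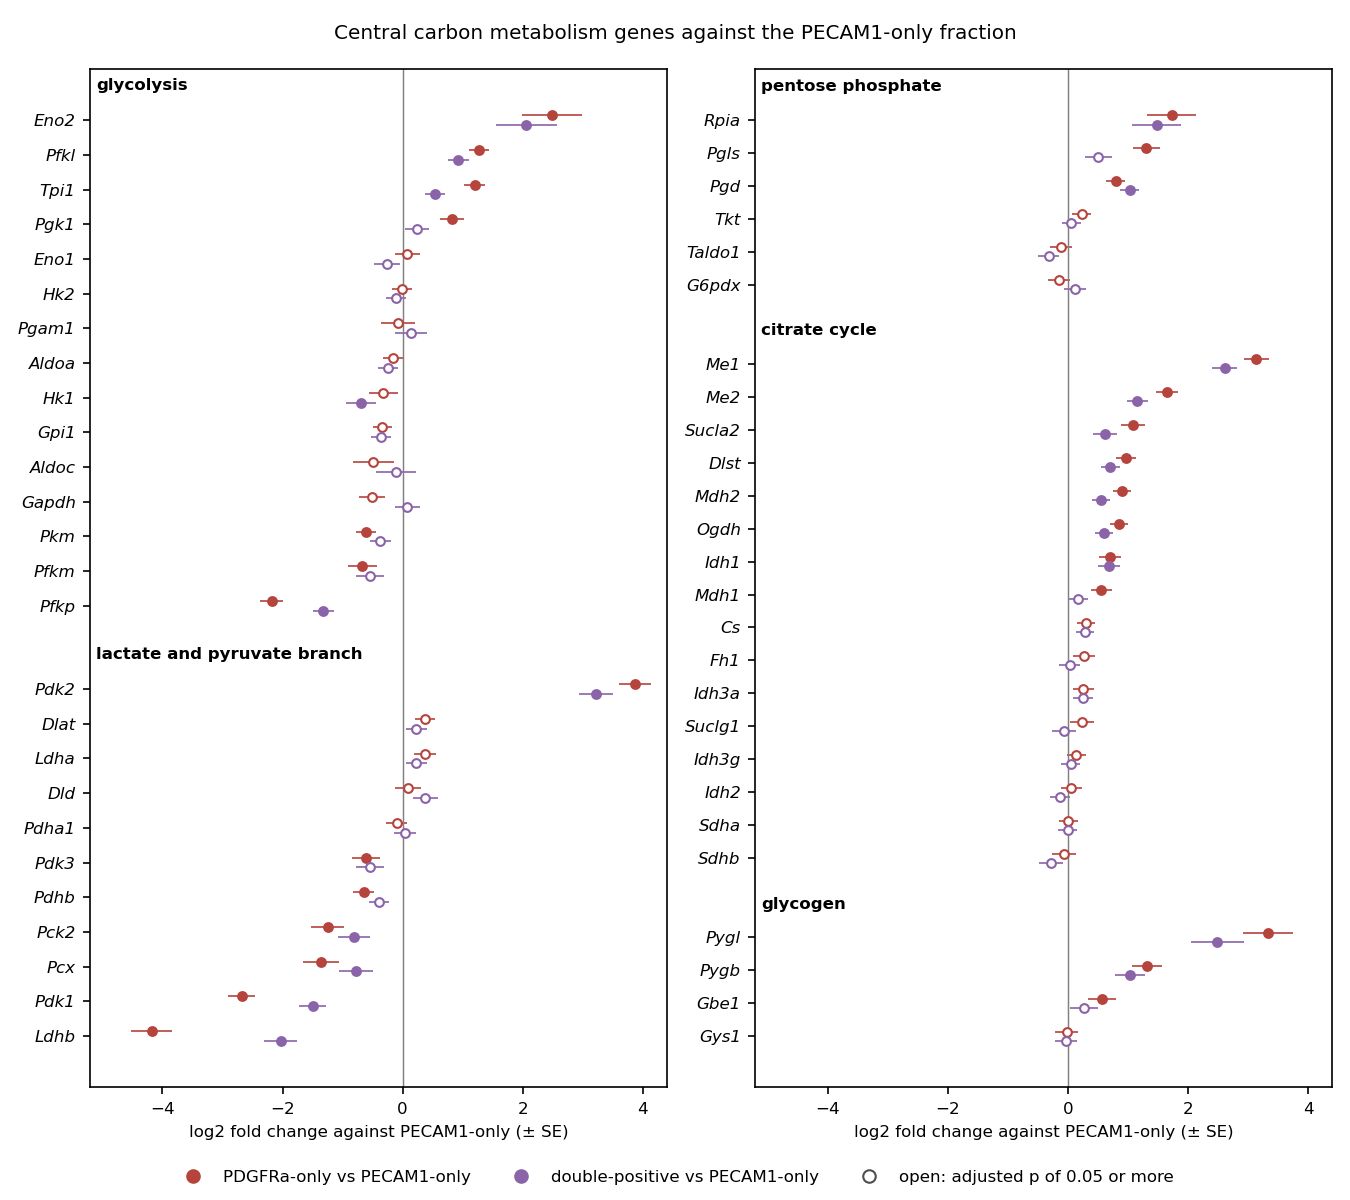
Log2 fold changes (points, with SE bars) of the 52 genes by route, for PDGFRa-only and double-positive against PECAM1-only cells; filled points passed an adjusted p of 0.05. Ldhb, Pdk1 and Pfkp lie far to the left and Pdk2, Pygl and Me1 far to the right, and no citrate cycle gene passed on the left.

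Phosphofructokinase, the enzyme that commits sugar to glycolysis, changed its main isozyme. Pfkp, the platelet-type gene (ENSMUSG00000021196, GRCm38 chromosome 13, 6579768 to 6648777), was at 105 and 163 CPM in the PDGFRa-only libraries, 248.5 and 239.6 CPM in the double-positive and 656 and 565 CPM in the PECAM1-only libraries. The 3 pairs of libraries did not overlap, with the highest levels in PECAM1-only cells. Pfkp was lower in PDGFRa-only than in PECAM1-only cells by a log2 fold change of -2.18 (SE 0.19, adjusted p = 2.9e-09), in double-positive than in PECAM1-only cells by -1.32 (SE 0.18, adjusted p = 6.11e-06) and in PDGFRa-only than in double-positive cells by -0.86 (SE 0.18, adjusted p = 0.00256).

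Pfkl, the liver-type gene (ENSMUSG00000020277, chromosome 10, 77986947 to 78010083), ran the other way. Its levels were 265 and 341 CPM in PDGFRa-only, 219.7 and 260.4 CPM in double-positive and 112 and 139 CPM in PECAM1-only libraries. Every PDGFRa-positive library was above both PECAM1-only libraries. Against PECAM1-only cells it was 2.42-fold higher in PDGFRa-only cells (log2 1.27, SE 0.17, adjusted p = 2.32e-06) and 1.91-fold higher in double-positive cells (log2 0.93, SE 0.17, adjusted p = 0.0002). Pfkm, the muscle type, was at 10.6 and 12.8, 12.1 and 13.6, and 20.2 and 17.3 CPM in the same order, and was lower in PDGFRa-only than in PECAM1-only cells (log2 -0.67, SE 0.24, adjusted p = 0.0212). Leaving out PDGFRa-only replicate 1 (adjusted p = 0.0834) or PECAM1-only replicate 1 (adjusted p = 0.159) ended that call.

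At the entry of the pathway, Hk2, the main hexokinase among the members, was at 180.5 and 206 CPM in PDGFRa-only, 172 and 189 CPM in double-positive and 185 and 204 CPM in PECAM1-only libraries. These ranges overlapped, with a log2 fold change of -0.01 (SE 0.16, adjusted p = 0.976) between PDGFRa-only and PECAM1-only cells. Hk1 was at 17.3 and 22.7, 13.1 and 17.8, and 20.5 and 29.9 CPM in the same order; it passed between double-positive and PECAM1-only cells (log2 -0.70, SE 0.25, adjusted p = 0.0276) but not without PECAM1-only replicate 2 (adjusted p = 0.36) or double-positive replicate 1 (adjusted p = 0.273). Hkdc1, a hexokinase-like gene outside the 52 (ENSMUSG00000020080, chromosome 10, 62383137 to 62422491), was at 158 and 201 CPM in PDGFRa-only, 98.0 and 109 CPM in double-positive and 0.291 and 0.314 CPM in PECAM1-only libraries. It had 2034 counts in the PDGFRa-only and 4 in the PECAM1-only libraries, a ratio of 608 (95% counting interval 237 to 2230, which covers counting error only; adjusted p = 4.07e-15).

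In the middle of the pathway, Tpi1, which interconverts the 2 triose phosphates made by aldolase, was at 171 and 187 CPM in PDGFRa-only, 113 and 114 CPM in double-positive and 67.7 and 88.1 CPM in PECAM1-only libraries. The 3 fractions did not overlap. Tpi1 rose 2.30-fold between PECAM1-only and PDGFRa-only cells (log2 1.2, SE 0.17, adjusted p = 2.9e-06), with log2 fold changes of 0.54 (SE 0.17, adjusted p = 0.0136) for double-positive against PECAM1-only and 0.66 (SE 0.16, adjusted p = 0.00784) for PDGFRa-only against double-positive cells. The difference of double-positive from PECAM1-only cells was lost in 7 settings, with an adjusted p of 0.114 under library-size scaling and of 0.186 when PECAM1-only replicate 1 was left out. Pgk1, the first ATP-making enzyme of the pathway, was at 67.8 and 104.5 CPM in PDGFRa-only, 53.7 and 62.4 CPM in double-positive and 46.3 and 51.8 CPM in PECAM1-only libraries, and passed between PDGFRa-only and PECAM1-only cells (log2 0.82, SE 0.20, adjusted p = 0.00127), though not on log2(RPKM + 1) of the deposited RPKM table (adjusted p = 0.0508).

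Aldoa, the main aldolase, was at 627 and 715.5 CPM in PDGFRa-only, 604 and 668 CPM in double-positive and 652 and 846.5 CPM in PECAM1-only libraries, with overlapping fractions and a log2 fold change of -0.16 (SE 0.17, adjusted p = 0.432) between PDGFRa-only and PECAM1-only cells. Aldoc stayed between 4.94 CPM and 10.98 CPM, with a log2 fold change of -0.49 (SE 0.34, adjusted p = 0.228). Pkm, the pyruvate kinase that ends glycolysis, was at 312 and 445 CPM in PDGFRa-only, 426 and 464 CPM in double-positive and 540 and 614 CPM in PECAM1-only libraries. It was lower in PDGFRa-only than in PECAM1-only cells (log2 -0.61, SE 0.17, adjusted p = 0.00498), a call lost without PECAM1-only replicate 2 (adjusted p = 0.0548). The counts are per gene, so the M1 and M2 splice forms of Pkm were not separated.

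Eno2, the neuronal enolase, was low but higher in the PDGFRa-positive fractions, at 4.49 and 4.99 CPM in PDGFRa-only, 2.99 and 4.07 CPM in double-positive and 0.582 and 1.10 CPM in PECAM1-only libraries. The PDGFRa-positive libraries did not overlap with the PECAM1-only ones (log2 2.49, SE 0.50, adjusted p = 0.000234 for PDGFRa-only and log2 2.06, SE 0.51, adjusted p = 0.00311 for double-positive). The latter was lost without PECAM1-only replicate 1 (adjusted p = 0.056). Eno1, the main enolase, was at 166 CPM in PDGFRa-only replicate 1 and at 90.0 CPM in replicate 2, against 100.2 and 101 CPM in double-positive and 110.3 and 131 CPM in PECAM1-only libraries. One PDGFRa-only library was thus the highest and the other the lowest of all 6. The log2 fold change between PDGFRa-only and PECAM1-only cells was 0.08 (SE 0.21, adjusted p = 0.776), and without PDGFRa-only replicate 1 it turned to -0.42 (adjusted p = 0.0412).

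Several glycolytic genes have near-identical annotated copies elsewhere (at least 95% identity over at least 200 bases), and how reads matching more than 1 place were counted is not stated, so their levels are uncertain. Gapdh, whose level was at 16.8 CPM to 30.7 CPM, has 78 such copies, which held 134% of its own counts. For Gpi1 the copies held 69.3%, for Pgam1 45.3%, for Eno1 43.3% and for Ldhb 29.4%; for Ldha and Pgk1 they held 3.78% and 1.09%. Gapdh (log2 -0.51, SE 0.22, adjusted p = 0.0519), Gpi1 (log2 -0.34, SE 0.16, adjusted p = 0.0778) and Pgam1 (log2 -0.08, SE 0.28, adjusted p = 0.825) did not pass between PDGFRa-only and PECAM1-only cells. With the copies' counts added, a setting chosen after seeing the data, none of the 3 passed either, and Ldhb gave -4.13 (adjusted p = 3.84e-10).

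Lactate dehydrogenase B had the largest fall of all 52 genes between PECAM1-only and PDGFRa-only cells. Ldhb (ENSMUSG00000030246, chromosome 6, 142490249 to 142507957), whose product favours the turning of lactate back into pyruvate, was at 3.14 and 1.66 CPM in PDGFRa-only, 9.44 and 10.95 CPM in double-positive and 31.3 and 52.5 CPM in PECAM1-only libraries. The 3 fractions were in separate ranges. Its log2 fold change was -4.18 (SE 0.34, adjusted p = 1.1e-09) for PDGFRa-only and -2.03 (SE 0.27, adjusted p = 3.27e-06) for double-positive against PECAM1-only cells, and -2.15 (SE 0.38, adjusted p = 0.000392) for PDGFRa-only against double-positive cells. Ldha (ENSMUSG00000063229, chromosome 7, 46841475 to 46855627), which favours lactate production, was at 817 and 1152 CPM in PDGFRa-only, 817 and 969 CPM in double-positive and 707.5 and 819.8 CPM in PECAM1-only libraries. Its fractions overlapped, and no comparison passed (log2 0.37, SE 0.18, adjusted p = 0.0844 between PDGFRa-only and PECAM1-only cells).

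The pyruvate dehydrogenase kinases switch off the pyruvate dehydrogenase complex by phosphorylation, and 2 of them moved in opposite directions. Pdk1 (ENSMUSG00000006494, chromosome 2, 71873224 to 71903858) was at 20.9 and 39.4 CPM in PDGFRa-only, 73.5 and 65.6 CPM in double-positive and 224 and 170.0 CPM in PECAM1-only libraries. Pdk2 (ENSMUSG00000038967, chromosome 11, 95026258 to 95041354) was at 34.1 and 32.8, 21.6 and 20.97, and 2.18 and 2.35 CPM in the same order. Neither gene's ranges overlapped between fractions, and the order of the fractions was opposite for the 2 genes.

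Against PECAM1-only cells, Pdk1 was lower in PDGFRa-only cells by a log2 fold change of -2.68 (SE 0.23, adjusted p = 5.31e-09) and in double-positive cells by -1.50 (SE 0.22, adjusted p = 1.37e-05). Pdk2 was 14.6-fold higher in PDGFRa-only cells (log2 3.87, SE 0.27, adjusted p = 1.25e-10) and 9.31-fold higher in double-positive cells (log2 3.22, SE 0.28, adjusted p = 7.08e-09), the largest rise among the members in both comparisons. Between PDGFRa-only and double-positive cells, Pdk1 differed by -1.18 (SE 0.23, adjusted p = 0.00123). Pdk2 differed by 0.65 (SE 0.21, adjusted p = 0.035), which was lost in 9 of the settings tried. Pdk3 was at 12.6 and 16.9, 13.4 and 17.8, and 21.3 and 24.3 CPM, and its fall in PDGFRa-only against PECAM1-only cells (log2 -0.61, SE 0.24, adjusted p = 0.0333) was lost in 6 settings.

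**Figure D2:**
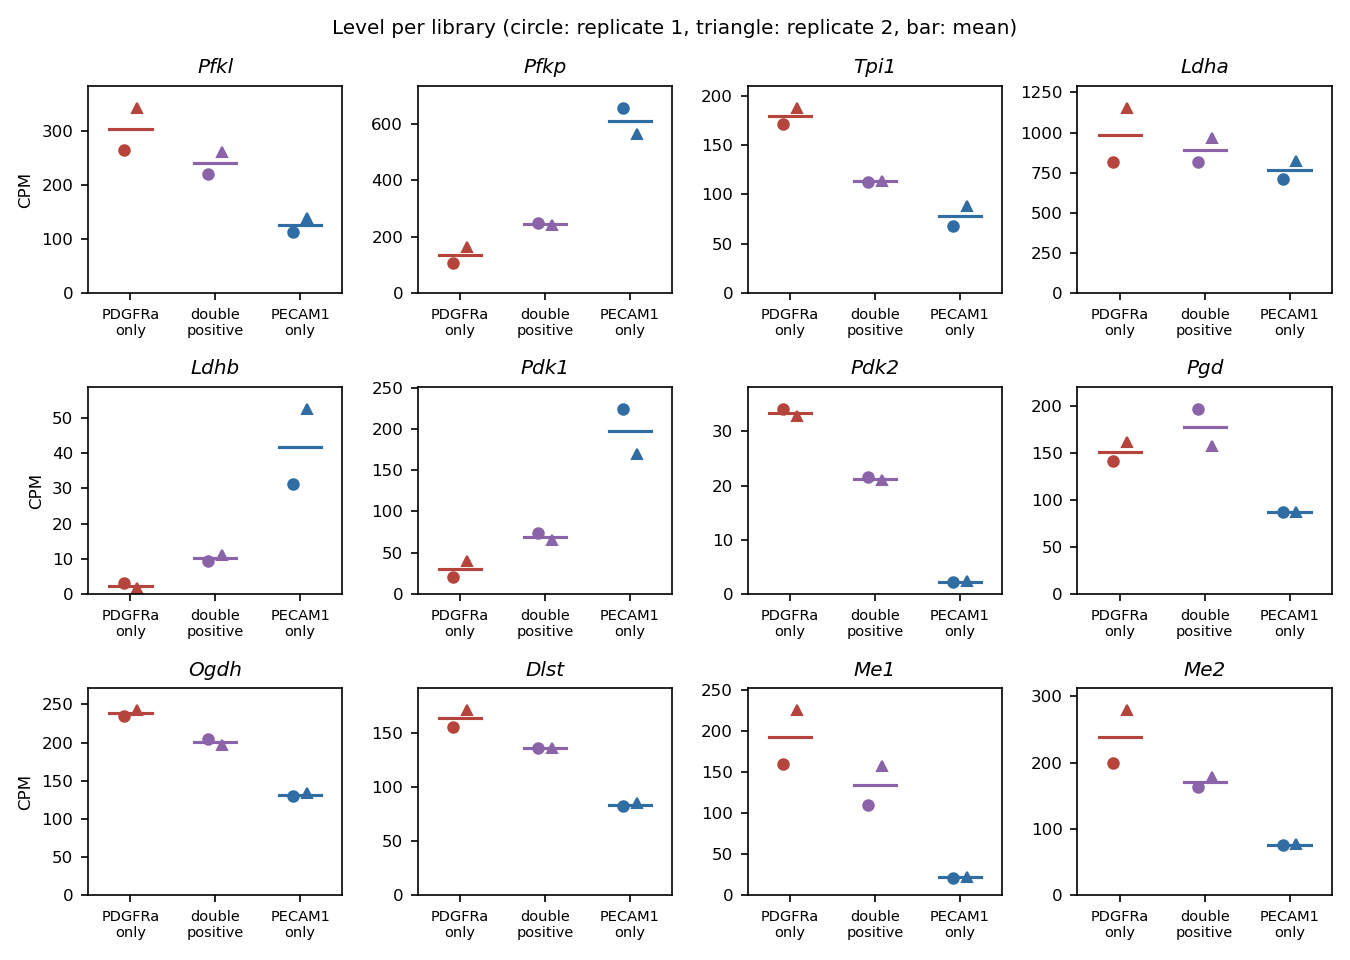
Level in CPM of 12 members in each library (circles replicate 1, triangles replicate 2, bars the mean of 2), by fraction, each panel on its own axis from 0. Pfkp, Ldhb and Pdk1 were highest and Pfkl, Pdk2, Me1 and Me2 lowest in the PECAM1-only libraries, while Ldha overlapped between fractions and Pgd was highest in a double-positive library.

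Of the members that encode subunits of the pyruvate dehydrogenase complex, which makes acetyl-CoA, only the E1 beta subunit Pdhb passed. Pdhx, another gene of the complex, is not a member. It was at 40.6 and 41.7 CPM in PDGFRa-only, 50.7 and 47.7 CPM in double-positive and 67.3 and 61.6 CPM in PECAM1-only libraries (log2 -0.65, SE 0.18, adjusted p = 0.00331 between the first and the last). The E1 alpha subunit Pdha1 (log2 -0.10, SE 0.18), the E2 subunit Dlat (log2 0.37, SE 0.17) and the E3 subunit Dld (log2 0.09, SE 0.21) did not pass, with adjusted p of 0.641, 0.0676 and 0.728.

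Pcx and Pck2 were lower in the PDGFRa-positive fractions. Pcx, pyruvate carboxylase, which refills the citrate cycle with oxaloacetate, was at 5.84 and 3.93 CPM in PDGFRa-only, 7.08 and 7.20 CPM in double-positive and 11.2 and 13.3 CPM in PECAM1-only libraries. Pck2, the mitochondrial phosphoenolpyruvate carboxykinase, was at 6.74 and 5.29, 6.92 and 9.23, and 14.7 and 13.6 CPM. Neither gene's PDGFRa-positive libraries reached the PECAM1-only levels. Both fell in PDGFRa-only against PECAM1-only cells (log2 -1.36, SE 0.30, adjusted p = 0.000617 for Pcx and log2 -1.25, SE 0.28, adjusted p = 0.000694 for Pck2). In double-positive cells their falls (adjusted p = 0.0329 and 0.0201) were lost without PECAM1-only replicate 1 (adjusted p = 0.0757 and 0.13) and in other settings.

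In the pentose phosphate pathway 3 genes rose, 2 of the oxidative arm and the isomerase that makes ribose 5-phosphate. Pgd, 6-phosphogluconate dehydrogenase, the second NADPH-producing enzyme, was at 141 and 162 CPM in PDGFRa-only, 196 and 158 CPM in double-positive and 87.1 and 86.9 CPM in PECAM1-only libraries. All 4 PDGFRa-positive libraries were above the PECAM1-only ones and overlapped with each other. Pgd rose in PDGFRa-only cells (log2 0.80, SE 0.16, adjusted p = 0.000283) and in double-positive cells (log2 1.03, SE 0.16, adjusted p = 3.91e-05), against PECAM1-only cells. On the deposited RPKM table the former did not pass (log2 0.41, adjusted p = 0.0638 with a pseudocount of 1).

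Pgls, the lactonase between the 2 dehydrogenases, was at 59.9 and 40.0 CPM in PDGFRa-only, 30.4 and 26.4 CPM in double-positive and 21.8 and 18.0 CPM in PECAM1-only libraries. It passed between PDGFRa-only and PECAM1-only cells (log2 1.31, SE 0.22, adjusted p = 2.86e-05) and between PDGFRa-only and double-positive cells (log2 0.80, SE 0.21, adjusted p = 0.0122), the latter not without PDGFRa-only replicate 1 (adjusted p = 0.124). Other annotated genes overlap 20.6% of its exons, and whether the counting used strand is not stated. The same limit holds for Pdha1 (16.1%), Pkm (15.3%), G6pdx (13.6%), Gpi1 (11.5%) and Pfkm (10.7%), which with Pgls are the 6 members over 10%. Rpia, that isomerase, was low, at 9.88 and 5.59, 7.87 and 4.85, and 2.48 and 2.04 CPM, and rose 3.32-fold in PDGFRa-only against PECAM1-only cells (log2 1.73, SE 0.41, adjusted p = 0.00103). G6pdx, the rate-limiting first dehydrogenase, did not pass (37.9 CPM to 53.7 CPM over the 6 libraries, log2 -0.15, SE 0.18, adjusted p = 0.508), and neither did the non-oxidative enzymes Tkt (132 CPM to 179 CPM, log2 0.23, SE 0.16, adjusted p = 0.239) and Taldo1 (35.8 CPM to 48.0 CPM, log2 -0.11, SE 0.18, adjusted p = 0.62).

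In the citrate cycle group, the malic enzymes, which turn malate into pyruvate, rose most. Me1, the cytosolic NADP-dependent enzyme (ENSMUSG00000032418, chromosome 9, 86581371 to 86695953), was at 160.3 and 225 CPM in PDGFRa-only, 110.1 and 157 CPM in double-positive and 21.1 and 22.6 CPM in PECAM1-only libraries. Me2, the mitochondrial enzyme, was at 199 and 279 CPM, 163 and 178.5 CPM, and 75.4 and 77.0 CPM. For both genes every library of the PDGFRa-positive fractions was above the PECAM1-only pair. Me1 was 8.84-fold higher in PDGFRa-only cells (log2 3.14, SE 0.21, adjusted p = 6.62e-11) and 6.11-fold higher in double-positive cells (log2 2.61, SE 0.21, adjusted p = 2.44e-09), and Me2 3.14-fold and 2.24-fold higher (log2 1.65 and 1.16, SE 0.18 and 0.17, adjusted p = 6.56e-08 and 1.69e-05).

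Within the cycle, Ogdh, Dlst and Sucla2 rose. Ogdh and Dlst are the E1 and E2 subunits of the 2-oxoglutarate dehydrogenase complex. Ogdh was at 235 and 242.5 CPM in PDGFRa-only, 204 and 196 CPM in double-positive and 129 and 134 CPM in PECAM1-only libraries, and Dlst at 156 and 171, 136.3 and 136.6, and 82.1 and 84.8 CPM. Sucla2, the ATP-specific subunit of succinyl-CoA ligase, was at 42.6 and 49.4, 30.5 and 36.5, and 23.4 and 20.2 CPM. None of these 3 genes overlapped between fractions, and all were in the order PDGFRa-only, double-positive, PECAM1-only.

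The log2 fold changes of PDGFRa-only against PECAM1-only cells were 0.86 for Ogdh (SE 0.15, adjusted p = 5.38e-05), 0.97 for Dlst (SE 0.16, adjusted p = 1.83e-05) and 1.08 for Sucla2 (SE 0.20, adjusted p = 8.73e-05). Double-positive cells passed as well, with 0.60 (adjusted p = 0.00316), 0.71 (adjusted p = 0.00105) and 0.62 (adjusted p = 0.0184). Sucla2 in double-positive cells was lost in 7 settings, among them DESeq2 (adjusted p = 0.0744). Suclg2, the GTP-specific counterpart of Sucla2, is not among the 52 genes and was looked up after the values were seen. It was at 22.2 and 23.7, 30.7 and 30.5, and 45.1 and 47.7 CPM, in the opposite order of the fractions, and fell in PDGFRa-only against PECAM1-only cells (log2 -1.01, SE 0.19, adjusted p = 0.000111). Its fall in double-positive cells (log2 -0.60, SE 0.18, adjusted p = 0.0132) was lost without any 1 of their 2 libraries or of the 2 PECAM1-only libraries (adjusted p = 0.0652 to 0.0994). Suclg1, the subunit that both pair with, did not pass (30.8 CPM to 46.9 CPM, log2 0.23, SE 0.20, adjusted p = 0.333).

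Both malate dehydrogenase genes rose in PDGFRa-only cells. Mdh2, the mitochondrial form, was at 417 and 388 CPM in PDGFRa-only, 333 and 297 CPM in double-positive and 204 and 226 CPM in PECAM1-only libraries, and the fractions did not overlap (log2 0.90, SE 0.15, adjusted p = 3.88e-05 for the first against the last). Mdh1, the cytosolic form, was at 85.1 and 80.5, 67.8 and 58.8, and 55.0 and 57.2 CPM, with a smaller rise (log2 0.56, SE 0.17, adjusted p = 0.00738) that was lost with library-size scaling (adjusted p = 0.168) and 2 other settings. Idh1, the cytosolic NADP-dependent isocitrate dehydrogenase, was at 123 and 187, 162 and 147, and 94.0 and 97.1 CPM, and rose in both PDGFRa-positive fractions (log2 0.70 and 0.69, SE 0.18 each, adjusted p = 0.00226 and 0.0045). Without PDGFRa-only replicate 2, Idh1 in PDGFRa-only cells was no longer past the threshold (log2 0.36, adjusted p = 0.0645).

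The other 8 genes of this group did not pass in any comparison. They were Cs, the citrate synthase that opens the cycle, the NAD-dependent Idh3a and Idh3g, the mitochondrial NADP-dependent Idh2, Suclg1, the succinate dehydrogenase subunits Sdha and Sdhb, and fumarase Fh1. Cs was at 340 and 373 CPM in PDGFRa-only, 344 and 359 CPM in double-positive and 268 and 307 CPM in PECAM1-only libraries (log2 0.31, SE 0.15, adjusted p = 0.0868). Sdha had means of 174.0 ± 30.2, 174.0 ± 9.57 and 173.5 ± 10.95 CPM (SD, n = 2; log2 0.01, SE 0.16).

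Glycogen phosphorylase, which releases glucose 1-phosphate from glycogen, rose in the PDGFRa-positive fractions. Pygl, the liver form, was at 9.65 and 13.1 CPM in PDGFRa-only, 7.40 and 5.48 CPM in double-positive and 1.60 and 0.627 CPM in PECAM1-only libraries, and Pygb, the brain form, at 26.9 and 31.1, 25.02 and 22.8, and 8.59 and 14.9 CPM. Neither gene's fractions overlapped. Between PDGFRa-only and PECAM1-only cells the log2 fold change was 3.33 (SE 0.42, adjusted p = 7.33e-07) for Pygl and 1.32 (SE 0.25, adjusted p = 0.000113) for Pygb. Double-positive cells passed as well, with 2.49 (SE 0.44, adjusted p = 0.000118) for Pygl and 1.03 (SE 0.25, adjusted p = 0.00231) for Pygb, the latter lost when PECAM1-only replicate 1 was left out (0.70, adjusted p = 0.0784). Gbe1, the branching enzyme, was at 18.4 and 17.4, 13.2 and 15.8, and 12.7 and 11.4 CPM; its call (log2 0.57, SE 0.24, adjusted p = 0.0448) was lost in 12 of the settings. Gys1, glycogen synthase, was between 29.4 CPM and 37.5 CPM in all libraries (log2 -0.02, SE 0.19, adjusted p = 0.946).

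Isozyme choice was read on a length-scaled level (CPM per kilobase of exons), which is meant to make genes comparable. The RNA was amplified, and whether counts followed exon length was not tested. A share is an isozyme's part of its family's summed level, given as the mean ± SD of 2 libraries; for 2 against 2 libraries the smallest exact two-sided permutation p is 0.333, so shares carry no test. Pfkl made up 77.2% ± 1.53 of phosphofructokinase in PDGFRa-only, 61.9% ± 3.0 in double-positive and 27.0% ± 5.10 in PECAM1-only cells. Pfkp made up 16.8% ± 1.89, 31.5% ± 3.07 and 65.0% ± 4.49. Pfkp has 13401 bases of exons but a longest coding transcript of 4145 bases, against 6675 and 3730 for Pfkl. The double-positive means were 240.0 CPM for Pfkl and 244.0 CPM for Pfkp, so the size of the Pfkl lead there depends on the length used. The leading isozyme differed between PDGFRa-only and PECAM1-only cells. The family's summed level was 50.7 and 67.2, 55.1 and 61.0, and 71.7 and 68.2 CPM per kilobase in the single libraries.

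Among Pdk1, Pdk2 and Pdk3, Pdk1 held 18.8% ± 5.94 in PDGFRa-only, 41.1% ± 4.03 in double-positive and 72.2% ± 5.73 in PECAM1-only cells, and Pdk2 52.9% ± 8.25, 30.9% ± 1.15 and 2.07% ± 0.346. Pdk3 held 28.3% ± 2.31, 28.0% ± 5.18 and 25.8% ± 5.38, and its fractions overlapped. Pdk1 has 7779 bases of exons and a longest coding transcript of 5185 bases, against 3163 and 2246 for Pdk2. The PDGFRa-only means were 30.15 CPM for Pdk1 and 33.45 CPM for Pdk2, so the size of the Pdk2 lead there depends on the length scaling. The summed level of these 3 kinases was 18.4 and 22.0 CPM per kilobase in PDGFRa-only, 21.5 and 22.0 in double-positive and 37.8 and 32.1 in PECAM1-only libraries, highest in PECAM1-only cells. With Pdk4 counted as well, also a choice made after seeing the data, Pdk4 held 1.02% ± 0.465, 4.39% ± 1.37 and 5.23% ± 3.17.

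Ldhb held 0.554% ± 0.354 of lactate dehydrogenase in PDGFRa-only, 2.35% ± 0.0349 in double-positive and 10.2% ± 2.38 in PECAM1-only cells, so Ldha was the main gene in all 3 fractions. Me1 held 60.3% ± 0.0404, 59.2% ± 4.47 and 35.1% ± 0.750 of malic enzyme. The summed level of both malic enzymes was 69.1 and 97.1, 51.1 and 65.4, and 15.9 and 16.5 CPM per kilobase. Me2 has 7252 bases of exons but a longest coding transcript of 2638 bases, against 3848 and 3292 for Me1. On the coding length Me2 was above Me1 in every fraction, so which of them leads depends on the length used. Idh1 held 69.6% ± 5.58, 72.8% ± 1.84 and 60.3% ± 1.77 of the NADP-dependent isocitrate dehydrogenases, Mdh2 77.8% ± 0.228, 78.2% ± 0.353 and 73.4% ± 0.842 of malate dehydrogenase, and Pygl 21.4% ± 1.95, 15.7% ± 1.96 and 7.18% ± 6.12 of glycogen phosphorylase. Aldoa held 98.9% to 99.2% of the summed level of Aldoa and Aldoc in all fractions. Between Eno1 and Eno2 alone, Eno2 held at most 4.48%. Eno3, the muscle enolase, was counted as well, a choice made after seeing the data. Eno3 then held 7.77% ± 5.48, 15.2% ± 3.5 and 28.5% ± 1.58 of enolase and Eno1 88.2% ± 7.16, 81.6% ± 4.02 and 70.9% ± 1.74. Eno1 has 5379 bases of exons but a longest coding transcript of 2027 bases, against 1739 and 1564 for Eno3. Copies of Eno1 held 43.3% of its counts, so the size of the Eno3 share depends on the length used and on the copies. Eno3 was at 2.25 and 4.08, 4.88 and 7.35, and 13.5 and 18.0 CPM, and fell in PDGFRa-only and double-positive against PECAM1-only cells (log2 -2.26, SE 0.34, adjusted p = 7.34e-06 and log2 -1.36, SE 0.30, adjusted p = 0.00114). Shares of Hk2 between Hk1 and Hk2 were 93.3%, 94.4% and 91.7%. With Hkdc1 counted as a hexokinase, a choice made after seeing the data, Hkdc1 held 50.1% ± 1.70, 38.6% ± 0.0734 and 0.166% ± 0.00552, and Hk2 46.6%, 57.9% and 91.6%.

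**Figure D3:**
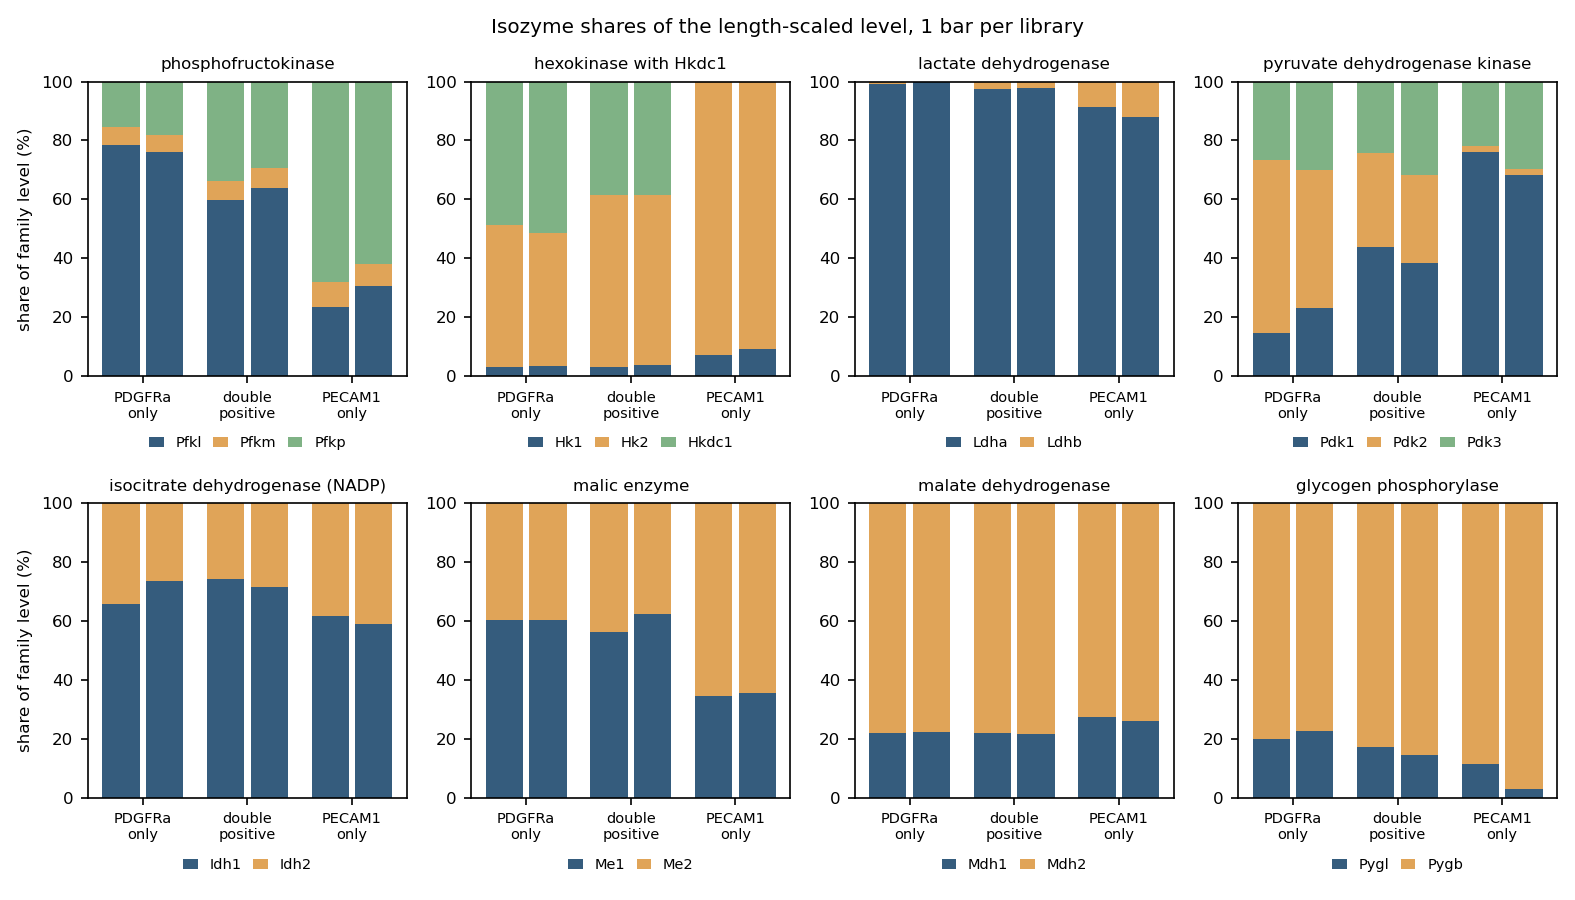
Share (%) of each isozyme in the length-scaled level of its family, with 1 stacked bar per library and 2 libraries per fraction. Pfkp and Pdk1 take most of their bars in PECAM1-only libraries and Pfkl in PDGFRa-only libraries, where Pdk2 is the largest part of its bars. Hkdc1 is nearly absent from PECAM1-only libraries, and Ldha fills most of every lactate dehydrogenase bar.

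Summed per route on the same length-scaled level, glycolysis was at 514 and 604 CPM per kilobase in PDGFRa-only, 494 and 542 in double-positive and 538 and 641.5 in PECAM1-only libraries, and its fractions overlapped. The citrate cycle group was at 549 and 605, 499 and 489, and 356 and 382 CPM per kilobase, without overlap, a ratio of 1.56 between the PDGFRa-only and PECAM1-only means. The pentose phosphate genes stood at 98.2 and 94.6, 96.6 and 87.8, and 74.3 and 80.05 CPM per kilobase (ratio 1.25), the glycogen genes at 16.6 and 19.5, 15.4 and 15.8, and 11.6 and 12.4 (ratio 1.51), and the lactate and pyruvate branch overlapped (ratio 1.06). In the deposited RPKM table, the pentose phosphate ratio turned to -0.03 on the log2 scale from 0.32. The citrate cycle group made up 35.0% of the summed level of all 52 genes in PDGFRa-only, 32.6% in double-positive and 25.8% in PECAM1-only cells, and glycolysis 33.8%, 34.2% and 41.2%. A few abundant genes carry these sums, and they were not tested. The citrate cycle sum includes the side reactions, with Me1, Me2 and the cytosolic Idh1 and Mdh1. Me1 and Me2 together had means of 83.07 CPM per kilobase in PDGFRa-only, 58.25 in double-positive and 16.18 in PECAM1-only cells. The ratio of the cycle's own enzymes without these genes was not computed. The glycolysis sum includes Gapdh, Gpi1, Pgam1 and Eno1, whose levels are uncertain because of their near-identical copies. Its size against the other routes is therefore uncertain as well.

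**Figure D4:**
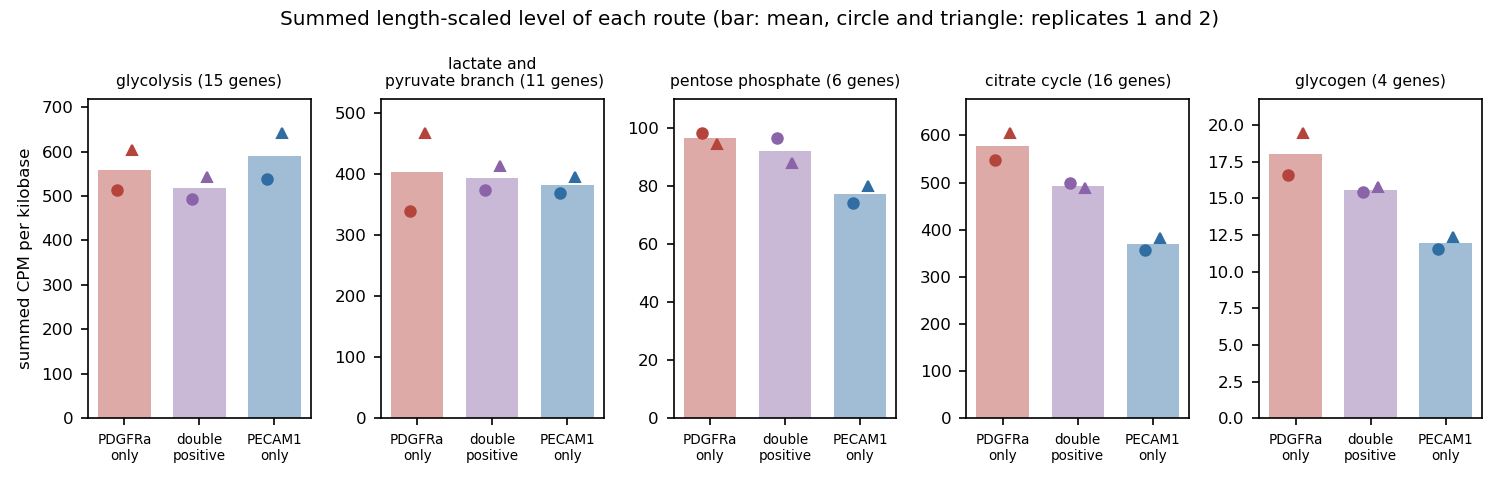
Summed length-scaled level (CPM per kilobase) of the members of each route by fraction (bars the mean, circles and triangles replicates 1 and 2), each panel on its own axis from 0. Citrate cycle, pentose phosphate and glycogen sums were lowest in both PECAM1-only libraries, and the glycolysis and the lactate and pyruvate branch sums overlapped between fractions.

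Of the 28 members that passed between PDGFRa-only and PECAM1-only cells, 27 (96.4%) had a double-positive mean between the other 2, as did 96.1% of the 8205 genes that passed in the whole table. The exception was Pgd, which was highest in double-positive cells. Placed on the log2 distance from PECAM1-only (0%) to PDGFRa-only (100%), the double-positive fraction stood at a median of 73.0% for the 19 members that were higher (74.8% for all such genes) and 60.6% for the 9 that were lower (46.0% for all such genes). These positions are a description. The 7 members that passed between PDGFRa-only and double-positive cells were Tpi1, Pgk1, Pdk2 and Pgls (higher) and Pfkp, Ldhb and Pdk1 (lower), and Ldhb and Pfkp alone kept this call in every setting tried. The call of Pgk1 (log2 0.58, SE 0.20, adjusted p = 0.0472) was lost in 12 settings.

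Other genes of the same pathways, from lists of pathway membership, were counted in PDGFRa-only against PECAM1-only cells. Of 17 tested glycolysis and glucose entry genes 11 rose and 3 fell, a share of 82.4% against the background of 59.0%. The 3 with the smallest p were Hkdc1, Fbp2 and Pgm1. Fbp2, a fructose bisphosphatase that runs against phosphofructokinase, was at 34.1 and 46.5 CPM in PDGFRa-only, 87.7 and 79.0 CPM in double-positive and 2.18 and 4.08 CPM in PECAM1-only libraries, so that the double-positive fraction was highest (log2 3.70, SE 0.28, adjusted p = 2.9e-10 against PECAM1-only for PDGFRa-only cells; log2 -1.04, SE 0.20, adjusted p = 0.00117 for PDGFRa-only against double-positive cells). The second of these calls was lost on log2(RPKM + 1) and log2(RPKM + 0.1), with limma's adjusted p = 0.0588 and 0.0848. The gene that the count table names Pgm1 (ENSMUSG00000029171, chromosome 5, 64092950 to 64128351) rose by 3.01 (SE 0.17, adjusted p = 4.37e-12). The gene named Pgm2 there is a separate one on chromosome 4 (ENSMUSG00000025791). Which of them encodes the main phosphoglucomutase was not examined, so the rise is not read as one of that enzyme. Of the glucose transporters, looked up after the values were seen, Slc2a3 was among the 11 and Slc2a1 among the 3.

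In the other lists the counts were 3 higher and 3 lower of 9 tested for lactate and pyruvate, 3 and 3 of 8 for pentose phosphate and ribose phosphate use, 6 and 2 of 12 for the citrate cycle, and 1 and 1 of 9 for glycogen. The background was 59.0% of all genes, 30.1% higher and 28.8% lower. Only the glycogen list, at 22.2%, passed less often than that. Each list holds few genes, and these shares were not tested. Slc16a1, the lactate and pyruvate transporter MCT1, rose (log2 1.36, SE 0.20, adjusted p = 4.58e-06), while Pdk4, another pyruvate dehydrogenase kinase at 0.449 CPM to 9.10 CPM, fell (log2 -3.0, SE 0.56, adjusted p = 0.000104), as did the opposing phosphatase subunit Pdp1 (log2 -2.01, SE 0.37, adjusted p = 8.49e-05). Prps1 and Prps2, which turn ribose 5-phosphate into the precursor of nucleotides, fell by 2.83 and 2.80 on the log2 scale (adjusted p = 1.53e-10 and 1.56e-10), and the epimerase Rpe rose (log2 1.25, SE 0.19, adjusted p = 7.25e-06).

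Aco1, the cytosolic aconitase, and Sdhd, the membrane anchor of succinate dehydrogenase, rose by 1.67 and 1.46 on the log2 scale (adjusted p = 8.43e-08 and 2.8e-07), and Got1, the cytosolic aspartate aminotransferase, fell by 1.08 (adjusted p = 4.36e-06). Gyg, the primer protein of glycogen, rose (log2 2.9, SE 0.27, adjusted p = 9.71e-09), and the phosphorylase kinase subunit Phkb fell (log2 -0.94, SE 0.19, adjusted p = 0.000289). Stbd1, a glycogen-binding protein, had a log2 fold change of 1.31 (SE 0.59) and did not pass (adjusted p = 0.0622).

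Of 15 tested regulators 1 rose (6.67%, against 30.1% of all genes) and 6 fell (40.0%, against 28.8%), so that 46.7% were called against the background of 59.0%. Txnip, an inhibitor of glucose uptake that is itself induced by glucose, was at 8.31 and 8.61 CPM in PDGFRa-only, 51.8 and 70.1 CPM in double-positive and 156 and 207.5 CPM in PECAM1-only libraries, without overlap (log2 -4.42, SE 0.23, adjusted p = 1.03e-12 between the first and the last). Esrrb, a nuclear receptor of the pluripotency network and one of the pluripotency markers, fell by 2.93 on the log2 scale (adjusted p = 3.97e-10), and Trp53, the p53 gene, fell by 2.1 (adjusted p = 1.03e-08). Hif1a, which encodes a hypoxia-inducible factor subunit, was among the 8 regulators that did not pass.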

How the data were processed

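Total RNA of 6 libraries was sequenced after amplification. Per the submitters' processing notes, cutadapt 1.2.1, Bowtie2 2.1.0, TopHat2 2.0.8b, HTSeq 0.5.4p3 and the build GRCm38 were used; their settings, strand and the treatment of multiply mapped reads are not given in the sources used here. The deposited table holds raw counts per Ensembl gene. A further deposited table holds RPKM values of 16105 genes, whose preprocessing by the authors is not stated, and served only as an alternative.

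Genes with low counts were removed (filterByExpr of edgeR 4.0.16, minimum count 10), which left 13909 of 38561. Libraries were scaled by TMM, and 1 quasi-likelihood model with a mean per fraction was fitted to all 6 libraries in R 4.3.3 (3 residual degrees of freedom, biological coefficient of variation 13.5%). Tests were two-sided, with Benjamini-Hochberg adjustment over all tested genes. Log2 fold changes are positive where the first-named fraction is higher. CPM are scaled by TMM. Exon lengths, positions and overlaps came from GENCODE M21, and near-identical copies were found with BLAST 2.17.0.

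The 52 genes and all lists were chosen with earlier results of these data known. The marker Dab2 has 2 rows and was left out. Named with values were every member of an isozyme family, the 4 members of each route with the smallest p between PDGFRa-only and PECAM1-only cells, and 3 genes of each other list; other genes named were chosen after their values were seen. Alternatives were DESeq2 1.42.0, other scalings and filters, 2 fractions at a time, a replicate block, each library left out, limma 3.58.1 on RPKM, counts of copies added, and further isozymes counted.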

Additional observations from a re-analysis of the deposited data

How the results depend on the processing

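With 16 settings, 20 of the 28 members called between PDGFRa-only and PECAM1-only cells, 12 of 21 between double-positive and PECAM1-only and 2 of 7 between PDGFRa-only and double-positive cells passed in every one. Members lower in PDGFRa-only than PECAM1-only cells became 14 with library-size scaling. Members lower in double-positive than PECAM1-only cells (6) became 12 with upper-quartile and 13 with library-size scaling, 11 with only the 2 fractions fitted, 10 on log2(RPKM + 1) and 10 on log2(RPKM + 0.1), and 3 to 11 with 1 library left out. Between PDGFRa-only and double-positive cells, all genes called (2450) became 773 and 940 on RPKM and 1269 to 2885 with 1 library left out; members higher (4) became 2 with DESeq2, 2 with library-size scaling, 0 and 0 on RPKM and 1 to 6 with 1 library left out, and members lower (3) became 4 with library-size scaling, 2 on log2(RPKM + 1) and 3 to 5 with 1 library left out. Scaling moves all genes together, fitting fewer libraries changes the estimate of spread, and for the RPKM table the cause was not tested.

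Differences in isozyme share between PDGFRa-only and PECAM1-only cells, in percentage points, moved as follows on the deposited RPKM table: Hk1 from -1.56 to -4.44, Pfkl from 50.3 to 38.3, Pfkm from -2.03 to -4.75, Pfkp from -48.2 to -33.5, Pdk2 from 50.8 to 65.6, Pdk3 from 2.57 to -4.90, Idh1 from 9.28 to 17.7, Mdh1 from -4.39 to -0.691, Me1 from 25.3 to 20.0 and Pygl from 14.2 to 22.2. With the length of the longest coding transcript they were 0.0128 for Pfkm, which turned its sign, 6.63 for Ldha (from 9.66), -2.83 for Mdh1, 20.6 for Me1 and 21.3 for Pygl. With Hkdc1 as an isozyme Hk1 was at -4.91. With Eno3 as an isozyme Eno1 turned from -3.70 to 17.2, with Eno3 itself at -20.7. Counting Ldhc moved Ldha from 9.66 to 9.68. Counting Pdk4 moved Pdk1 from -53.4 to -49.9, Pdk2 from 50.8 to 50.4 and Pdk3 from 2.57 to 3.70. The log2 ratio of the route sums moved from 0.32 to 0.49 (coding length) and -0.03 (RPKM, reversed) for pentose phosphate, and on RPKM from 0.65 to 0.43 for the citrate cycle and from 0.59 to 0.26 for glycogen. The log2 fold change of Eno1 between PDGFRa-only and PECAM1-only cells, 0.08, ran from -0.42 (adjusted p = 0.0412, without PDGFRa-only replicate 1) to 0.46 (without PDGFRa-only replicate 2).

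The title endings Exp1 and Exp2 do not say whether libraries of the same number share a culture or a sort. Their deviations correlated with r = -0.0289, 0.1826 and 0.1322 across 13909 genes; as 1 of the 3 was not over 0.1, the numbers were not taken to pair the libraries. With the replicate block, members called were 20 higher and 10 lower, 16 and 7, and 6 and 3 in the 3 comparisons, and all genes called 8397, 5644 and 2834. At these depths, genes near 1 CPM rest on few counts, as Pygl with 15 and Eno2 with 11 counts in the PECAM1-only libraries.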
